A study of Gallus gallus with 38 samples.

Results

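The cytochrome P450 genes of the chicken gut mucosa were examined, 40 genes in all, compared between the jejunum and the cecum of the same broilers. They are the genes whose symbol on the array platform is CYP followed by a digit, with *CYP51A1*, an enzyme of cholesterol synthesis, left out. The rule was met by 44 probe sets of 18308 on the array. A probe set counted only if the platform annotation gave it a single symbol, as for 12300 probe sets with 11528 different symbols, and where a gene had several probe sets, that with the highest mean was taken. The gene ID of 39 members was found in the RefSeq table of GRCg7b, where *CYP2J24P* is listed as a transcribed pseudogene. *CYP2C45* came without a gene ID, and its symbol is listed there as an older name of *CYP2C18*.

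Mucosa was scraped from the jejunum and from the cecum of male Ross 308 broilers, fed a standard diet in 3 phases and taken at slaughter at 42 days (6 weeks in the sample labels). The groups were 19 jejunal and 19 cecal arrays, 1 per bird and tissue, and all birds shared breed, sex, vaccinations, poultry house and diet, with no treatment between them. They were reared in 6 pens and chosen for even body weight, and the labels do not say which bird came from which pen, so pens could not enter the tests. Sample titles number the chickens from 1 to 19 in both tissues, so equal numbers were read as equal birds, although the sampling text speaks of 38 birds. A free text field names oxyntic mucosa, a tissue of the stomach, for the samples, while titles and tissue labels give jejunum and cecum, which were used.

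Cytochrome P450 enzymes hold a heme group and insert an atom of oxygen from molecular oxygen into their substrate, with electrons passed on by a partner protein. In vertebrates families with low numbers mostly oxidise drugs, plant compounds, pollutants and fatty acids, and families with higher numbers mostly make or break down bile acids, steroid hormones, retinoids and vitamin D. The liver holds most of them. In the small intestine the absorptive enterocytes carry several, which meet compounds from the feed before they enter the blood.

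Values are log2 signals as deposited, so a difference of 1 is a 2-fold change, and every difference is jejunum minus cecum. Signals of different probe sets cannot be compared with each other. FCR, the fold change ratio, is 2 raised to the size of the difference between the mean log2 signals. A transcript was called where FCR reached 2 and limma's adjusted p over all 18308 probe sets was under 0.05. Scrapings hold many cell types, and in such samples fewer cells of a type and less RNA per cell cannot be told apart. Of 15 listed enterocyte markers 12 were measured, of which 7 were called higher in the jejunum and 1 higher in the cecum, and their summed linear signal was 11250 to 29430 in the jejunum and 4574 to 7673 in the cecum. Of 5 measured smooth muscle markers (10 listed) 4 were called higher in the cecum, with a sum of 332.6 to 2450 in the jejunum and 1305 to 4455 in the cecum. T cell markers were called higher in the jejunum for 4 of 8, goblet cell markers for 3 of 6 and B cell markers for 0 of 6. Over all probe sets 3.68% were called higher in the jejunum and 3.62% higher in the cecum. All 12 hepatocyte markers were measured, and 9 of them had a mean under 5 in both tissues, albumin among them. The part of these shifts in the differences of P450 genes was not tested. The cecal array of bird 3 stood apart from its tissue (r = 0.928 with the mean of the other cecal arrays), followed by jejunal arrays of birds 2, 5 and 19 (0.962 to 0.971). The other 34 arrays had an r of 0.979 to 0.992.

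In the jejunum 7 of the 40 P450 genes were called higher than in the cecum (3.68% of all probe sets were), and 0 were called lower (3.62% of all probe sets in that direction). The 7 were *CYP2AC1*, *CYP2D6*, *CYP3A5*, *CYP4V2*, *CYP4A22*, *CYP2U1* and *CYP3A4*, and all belong to families 2, 3 and 4. At an unadjusted p under 0.05 in limma 10 members were lower in the jejunum, again 0 of them at an FCR of 2 or more. At any size of difference 10 members passed the adjusted threshold as higher in the jejunum (20.1% of all probe sets did) and 8 as lower (25.1%), which leaves 22 (54.8% of all probe sets). The median difference over the 40 members was 0.03, beside -0.03 over all probe sets, and single differences ran from -0.74 to 5.22. A median near 0 does not show equality, since 23 of the 40 had a mean under 5 in both tissues (36.0% of all probe sets). Without the 4 arrays that stood apart, 7 members were again called higher in the jejunum and 0 lower.

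**Figure D1:**
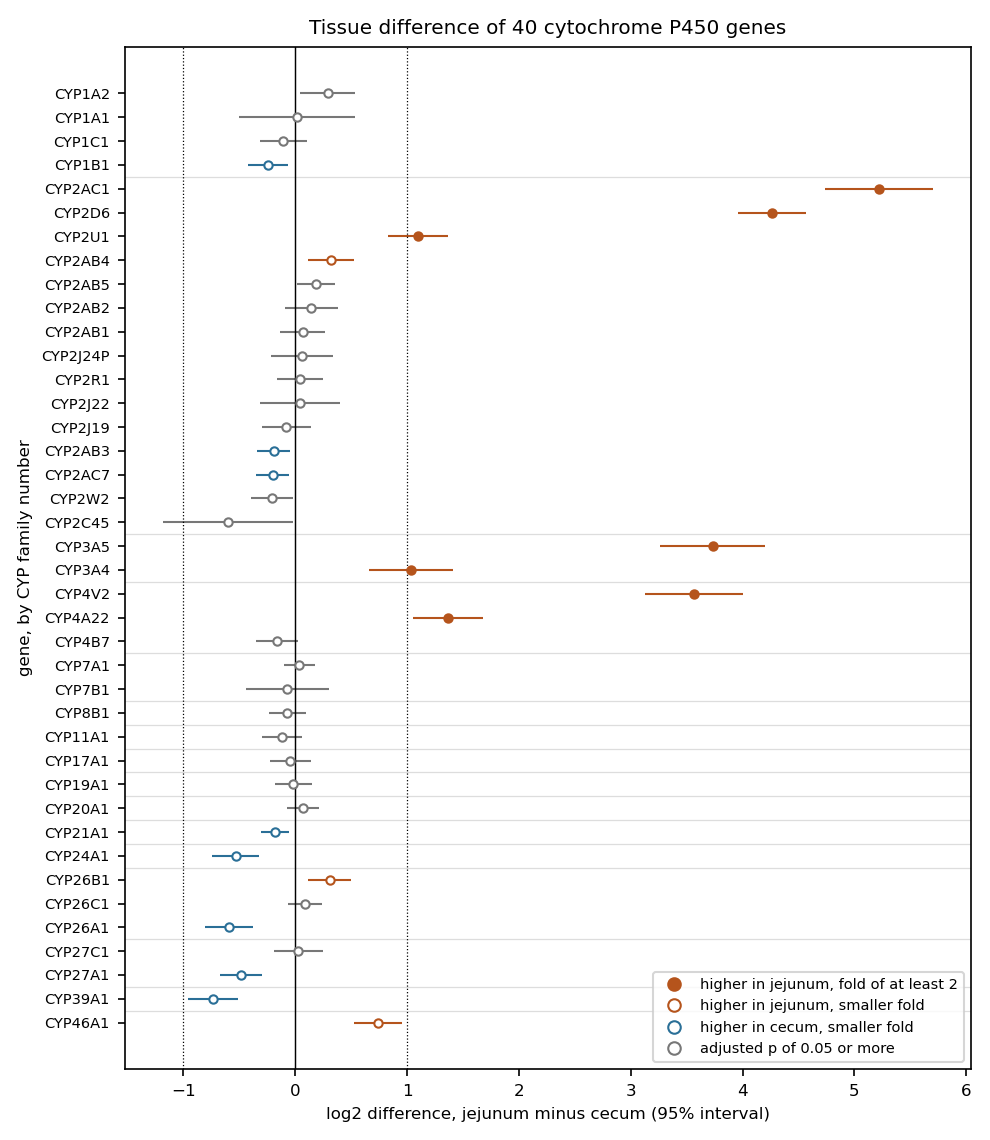
Log2 difference (jejunum minus cecum) of the 40 P450 genes with its 95% interval, in order of CYP family, for 19 birds. Filled points mark the 7 genes called higher in the jejunum, open coloured points the smaller differences with an adjusted p under 0.05, grey points the rest, and dotted lines a 2-fold change. All filled points lie in families 2, 3 and 4, from 1.04 to 5.22.

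Family 2 was the largest, with 15 members, of which 3 were called higher in the jejunum and 0 lower. *CYP2AC1*, whose substrates are not described in the sources used here, ranged from 5.96 to 9.92 in the jejunum (median 8.62), against 2.91 to 4.19 in the cecum (median 3.37). The lowest jejunal array was that of bird 8, and it was still above every cecal array. Jejunal arrays averaged 8.66 ± 1.05 and cecal arrays 3.44 ± 0.35 (SD, n = 19 each), a difference of 5.22 (SE 0.24, FCR 37.3, limma adjusted p = 4.3e-22). *CYP2D6*, which in humans oxidises many basic drugs and is listed in RefSeq also as *CYP2D49*, ranged from 9.32 to 11.18 in the jejunum (median 10.20), against 5.25 to 7.01 in the cecum (median 5.86). Again no array of a tissue reached into the range of the other. Mean signals of 10.15 ± 0.54 (jejunum) and 5.89 ± 0.42 (cecum) gave a difference of 4.26 (SE 0.15, FCR 19.2, adjusted p = 4.8e-26).

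*CYP2U1*, whose human enzyme hydroxylates long fatty acids, differed far less. It ranged from 6.11 to 8.15 in the jejunum (median 6.98), against 5.39 to 6.26 in the cecum (median 5.89). The ranges met at the edge, but the jejunum was higher in 19 of 19 birds. The means were 6.98 ± 0.54 and 5.88 ± 0.27 in jejunum and cecum, with a difference of 1.10 (SE 0.13, FCR 2.15, adjusted p = 3.0e-09), and a second probe set of the gene gave 1.74.

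*CYP2C45* was the family 2 gene with the widest spread between birds and the only one of its subfamily on the array under a single symbol. CYP2C enzymes oxidise drugs and fatty acids in mammals. Its signal ranged from 7.35 to 12.37 in the jejunum (median 10.80), against 8.33 to 12.24 in the cecum (median 11.23). The tissues overlapped almost entirely, and each had a single array far below the rest, bird 19 in the jejunum at 7.35 (the next was 9.73) and bird 5 in the cecum at 8.33 (the next was 10.89). The jejunum was lower in 16 of 19 birds, and the test missed the threshold (difference -0.60, 95% interval -1.18 to -0.02, adjusted p = 0.086). Single birds moved this call, since the adjusted p was 0.040 without bird 1 and 0.018 without bird 5, whereas without the 4 arrays that stood apart the difference was -0.35 (adjusted p = 0.27).

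Of the remaining 11 members of family 2, 10 had a mean signal under 5 in both tissues, below the array medians (5.57 to 5.75). The exception was *CYP2J22*, of a subfamily that makes epoxides from arachidonic acid in mammals. Its mean was 6.50 ± 0.62 for jejunal and 6.46 ± 0.51 for cecal arrays (difference 0.04, 95% interval -0.31 to 0.40). The other CYP2J members were equally close, with a difference of -0.08 for *CYP2J19*, which in zebra finches is linked to red carotenoids, and of 0.06 for the pseudogene *CYP2J24P*. *CYP2AB4* passed the test as higher in the jejunum (0.32, adjusted p = 0.0095), while *CYP2AB3* (-0.19, adjusted p = 0.029) and *CYP2AC7* (-0.20, adjusted p = 0.020) passed it as lower. With the bird as a block *CYP2AB3* was no longer called (adjusted p = 0.073), nor was it after median centring (0.12), and *CYP2AC7* lost its call after quantile normalization (0.054) and median centring (0.099). Thus the CYP2AB group of 5 neighbouring genes held small differences in both directions, and the call of *CYP2AB3* was lost when any 1 of birds 2, 3, 4, 13, 15, 17 and 18 was left out (adjusted p 0.051 to 0.076). *CYP2AB1*, *CYP2AB2*, *CYP2AB5*, *CYP2R1* and *CYP2W2* had differences between -0.21 and 0.19 and did not pass. Among these the adjusted p fell under the threshold for *CYP2AB5* when any 1 of birds 2, 3, 4, 12, 16 and 19 was left out (0.020 to 0.047) and for *CYP2W2* likewise with birds 4, 6, 8, 14 and 18 (0.045 to 0.048).

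Both measured members of family 3 were called. CYP3A enzymes take a wide range of drugs, mycotoxins and steroids, and in mammals are the main P450 enzymes of the small intestine. *CYP3A5*, listed in RefSeq also as *CYP3A37*, ranged from 9.73 to 11.97 in the jejunum (median 10.83), against 5.31 to 8.55 in the cecum (median 7.50). No values overlapped, although the cecal arrays were spread widely. Means of 10.89 ± 0.59 (jejunum) and 7.16 ± 0.90 (cecum) differed by 3.73 (SE 0.23, FCR 13.3, adjusted p = 1.9e-17). *CYP3A4*, listed also as *CYP3A80* and a neighbour of *CYP3A5* on the chromosome, ranged from 8.08 to 10.42 in the jejunum (median 9.24), against 6.74 to 9.34 in the cecum (median 8.36). Here the tissues overlapped over much of their range, but 18 of 19 birds had the higher signal in the jejunum, the exception being bird 19. The difference was 1.04 (SE 0.19, FCR 2.06, adjusted p = 9.4e-06) between means of 9.32 ± 0.62 in the jejunum and 8.28 ± 0.59 in the cecum. It stood so close to the limit of a 2-fold change that it fell short of it without bird 1 (0.96), bird 2 (1.00 after rounding), bird 3 (0.95) or bird 6 (0.99). Neighbouring P450 genes can be so alike that probes read both, which was not checked here.

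Family 4, whose enzymes hydroxylate the end of fatty acid chains, had 2 of 3 members called. *CYP4V2* ranged from 6.98 to 11.00 in the jejunum (median 10.15), against 5.68 to 7.20 in the cecum (median 6.42). The jejunal array of bird 19 at 6.98 was the only one to reach into the cecal range, and the next lowest jejunal array was that of bird 5 at 8.80. The means were 9.99 ± 0.93 and 6.43 ± 0.39 in jejunum and cecum, a difference of 3.56 (SE 0.22, FCR 11.8, adjusted p = 9.3e-18). *CYP4A22*, listed in RefSeq also as *CYP4B1*, ranged from 7.93 to 10.25 in the jejunum (median 9.13), against 6.78 to 8.50 in the cecum (median 7.75). The ranges overlapped in part, with the jejunum higher in every bird. Its difference was 1.36 (SE 0.15, FCR 2.58, adjusted p = 6.8e-10), and a second probe set gave 1.28. *CYP4B7*, which lies beside *CYP4A22* on the chromosome, was dim, with means of 3.06 in the jejunum and 3.22 in the cecum (difference -0.16, adjusted p = 0.17).

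**Figure D2:**
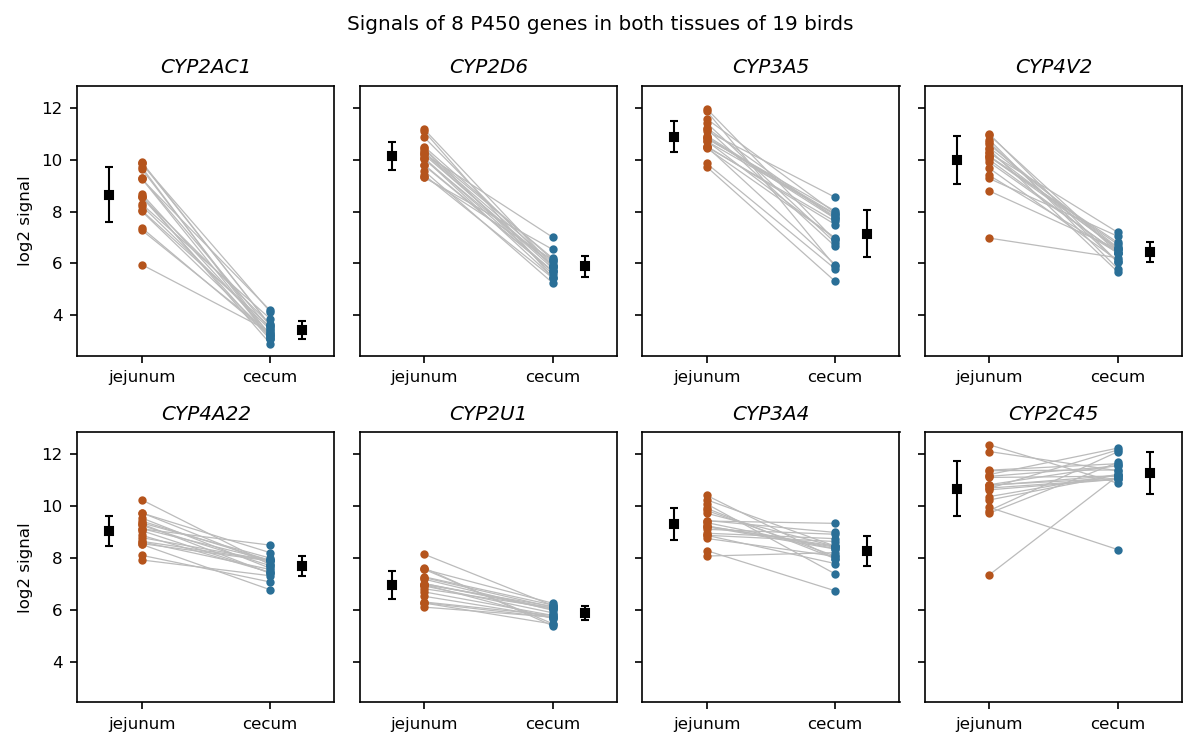
Log2 signal of the 7 P450 genes called higher in the jejunum, and of *CYP2C45*, in jejunum (left) and cecum (right) of 19 birds. Grey lines join the tissues of a bird, and squares with bars give mean ± SD. All lines fall to the right for *CYP2AC1*, *CYP2D6*, *CYP3A5*, *CYP4V2*, *CYP4A22* and *CYP2U1*, 18 of 19 do for *CYP3A4*, and for *CYP2C45* the cecum is higher in 16 birds.

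Family 1, the enzymes induced by the aryl hydrocarbon receptor that act on planar aromatic compounds, had 0 of 4 members called. *CYP1A1*, listed in RefSeq also as *CYP1A4*, ranged from 3.96 to 7.86 in the jejunum (median 5.16), against 4.28 to 7.98 in the cecum (median 5.04). In each tissue a single array stood high, that of bird 1 in the jejunum at 7.86 (the next was 6.00) and that of bird 3 in the cecum at 7.98 (the next was 6.32). Bird 1 was low in the cecum (4.59) and bird 3 was in the middle of the jejunal values (5.03). Jejunal arrays averaged 5.25 ± 0.83 and cecal arrays 5.23 ± 0.85, which differ by 0.02 (95% interval -0.50 to 0.53, adjusted p = 0.97). An interval of this width does not show equality.

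The cecal array of bird 3, the one with the lowest r to its tissue, was also the highest cecal array for *CYP1A2* (5.35) and *CYP1C1* (5.36) and the second highest for *CYP1B1* (4.95). This was not particular to family 1, since the same array was the highest of the cecum for 15 of the 36 members of other families, most of them dim, such as *CYP2J19* (5.57), *CYP27A1* (5.42) and *CYP11A1* (5.20). No other cecal array was the highest for more than 4 members. *CYP1A2* differed by 0.29 with an adjusted p of 0.0505, and it passed as higher in the jejunum when any 1 of birds 2, 3, 4, 17 and 19 was left out (adjusted p 0.0040 to 0.042). *CYP1B1* was slightly lower in the jejunum in 17 of 19 birds (-0.24, adjusted p = 0.023, or 0.059 without bird 1 and 0.075 after median centring). *CYP1C1* differed by -0.11 (adjusted p = 0.45). *CYP1A2*, *CYP1B1* and *CYP1C1* were all dim, with means under 5 in both tissues.

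The 16 members of families above 4 act mostly on sterols, hormones and vitamins. None of these was called in either tissue, since no difference reached 2-fold (-0.74 to 0.74). At any size 2 passed as higher in the jejunum (20.1% of all probe sets did) and 5 as lower (25.1%). Whether these counts differ from those shares was not tested. In the bile acid and oxysterol group *CYP39A1*, an oxysterol hydroxylase, was lower in the jejunum of all 19 birds (4.69% of all probe sets were). It ranged from 4.31 to 5.51 in the jejunum (median 4.94), against 5.15 to 6.39 in the cecum (median 5.67). The tissues overlapped at 5.15 to 5.51, but within each bird the order was the same. The difference was -0.74 (SE 0.11, adjusted p = 3.8e-07). The largest difference in the other direction was that of *CYP46A1*, which hydroxylates cholesterol and is best known from neurons. It averaged 7.85 ± 0.35 in jejunal and 7.11 ± 0.31 in cecal arrays and was higher in the jejunum of 18 of 19 birds (0.74, SE 0.11, adjusted p = 1.4e-07).

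*CYP27A1*, the mitochondrial sterol hydroxylase, was lower in the jejunum in 16 of 19 birds (-0.49, adjusted p = 2.7e-05), but it was dim, with means of 4.28 in the jejunum and 4.76 in the cecum. *CYP7A1*, the rate-limiting enzyme of bile acid synthesis in the liver, had means of 2.39 in the jejunum and 2.35 in the cecum, among the lowest of all members, and differed by 0.04. *CYP8B1*, which sets the ratio of bile acids, was dim as well (difference -0.07). *CYP7B1*, a further oxysterol hydroxylase, varied more between birds, from 3.94 to 6.42 in the jejunum and from 4.47 to 6.10 in the cecum, with a difference of -0.07 (95% interval -0.44 to 0.30).

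Of 4 enzymes that break down the active forms of vitamins A and D, 2 passed the test as lower in the jejunum (25.1% of all probe sets did) and 1 as higher (20.1%). *CYP26A1*, which oxidises retinoic acid, ranged from 3.92 to 4.62 in the jejunum (median 4.28), against 4.24 to 5.87 in the cecum (median 4.78). It was lower in the jejunum in 17 of 19 birds (-0.59, SE 0.10, adjusted p = 8.0e-06). *CYP26B1*, with the same reaction, went the other way in 16 of 19 birds (0.31, adjusted p = 0.0064), and *CYP26C1* did not pass the test (0.09). Both *CYP26A1* and *CYP26B1* were dim, with means under 5 in both tissues. *CYP24A1*, which inactivates the hormonal form of vitamin D, was lower in the jejunum in 16 of 19 birds (-0.53, SE 0.11, adjusted p = 4.8e-05). Its means were 4.53 in the jejunum and 5.06 in the cecum, so only the cecal mean was above 5. A second probe set gave -0.76 and was dim, with means of 2.90 (jejunum) and 3.66 (cecum). *CYP2R1*, which prepares vitamin D for activation, differed by 0.05 and the retinoid desaturase *CYP27C1* by 0.03, and both were dim.

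The steroid hormone enzymes *CYP11A1*, *CYP17A1*, *CYP19A1* and *CYP21A1* had differences between -0.18 and -0.02. Of these *CYP21A1* passed the test as lower in the jejunum (-0.18, adjusted p = 0.012, 16 of 19 birds), at means of 5.01 (jejunum) and 5.19 (cecum). That call was lost after quantile normalization (0.057) and median centring (0.081). *CYP20A1*, an enzyme with no known substrate, had a steady signal in both tissues, 7.33 ± 0.18 in the jejunum and 7.26 ± 0.24 in the cecum, with a difference of 0.07. Across the 40 members, 23 had a mean under 5 in both tissues (36.0% of all probe sets), and the 7 called genes were among the other 17, a count that the filter itself favours.

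The direction of the 7 called genes was the same in nearly every bird. All 7 were higher in the jejunum in 18 of 19 birds, and bird 19 had 6, with *CYP3A4* at -0.13. A stronger jejunal signal without exception was found for 6 of the 40 members, all called genes (share of all probe sets: 4.91%). The 7 were called by fold and adjusted p on the same arrays, which favours agreement between birds. That agreement is therefore not separate evidence for the calls. For 3 of the 40, *CYP2AC1*, *CYP2D6* and *CYP3A5*, the tissues did not overlap at all (2.95% of all probe sets did not overlap, and 1.73% did not with the jejunum above). The size varied, since the median of the 7 differences was 0.76 in bird 19 and 4.98 in bird 3.

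Spread between birds was wide for several members. The median SD over members was 0.319 in the jejunum and 0.322 in the cecum, beside 0.269 (jejunum) and 0.295 (cecum) over all probe sets. The SD of *CYP2C45* was larger than that of 99.4% of probe sets in the jejunum and 99.2% of them in the cecum. For *CYP1A1* the values were 98.2% (jejunum) and 99.3% (cecum). In contrast, *CYP2AC1* was widely spread in the jejunum (99.3%) and less so in the cecum (70.0%). Its cecal mean was only 3.44, and differences between dim signals can be compressed. *CYP4V2*, with a cecal mean of 6.43, was also spread more in the jejunum (98.9% in the jejunum and 79.9% in the cecum). *CYP3A5* was spread more in the cecum, with an SD of 0.59 in the jejunum and 0.90 in the cecum. Single arrays far from the rest weigh on the SD of *CYP2C45* and *CYP1A1* in both tissues and of *CYP4V2* in the jejunum. The SD without them was not computed. The test of a difference in spread was not made.

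No member passed the threshold with levels that were high or low together in both tissues of a bird. Over the 40 members, Pearson's r between the tissues was above 0 for 28 and had an adjusted permutation p under 0.05 for 0 (4 at an unadjusted p under 0.05, and 1 adjusted by Spearman's rho). The same shares over all probe sets were not computed, so 28 of 40 cannot be called particular to these members. *CYP2J22* had the largest positive value (r = 0.57, permutation p = 0.011, adjusted 0.23, rho = 0.51, permutation p = 0.028, adjusted 0.38, 19 birds), which was 0.40 without birds 1 and 5. The value past the threshold by rho was that of the dim *CYP2AB3*, with opposite order in the tissues (rho = -0.72, permutation p = 0.00064, adjusted 0.026, while r = -0.59, permutation p = 0.011, adjusted 0.23).

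Within a tissue, however, members of a family varied together over birds in several cases. Pairs of members from different families were not tested, so this cannot be called particular to a family. Of 240 relations (120 pairs of the same family in each tissue, over 19 birds), 13 had an adjusted permutation p under 0.05 by Pearson's r, 12 of them positive and 9 of them in the jejunum, and 4 passed with both measures. *CYP3A4* and *CYP3A5* were the only pair to do so in both tissues. In the jejunum r was 0.93 (permutation p = 1e-05, the smallest that the permutations can give, adjusted 0.0024) and rho was 0.90 (the same p and adjusted p), with r = 0.89 without birds 1 and 19. In the cecum r was 0.83 (permutation p = 2e-05, adjusted 0.0024) and rho was 0.81 (permutation p = 3e-05, adjusted 0.0036), with r = 0.81 without birds 5 and 13. The birds at the low end were bird 19 and bird 5 in the jejunum and bird 5 in the cecum.

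The other pairs past both thresholds were jejunal. *CYP4A22* and *CYP4V2* had r = 0.75 (permutation p = 4e-05, adjusted 0.0032) and rho = 0.75 (permutation p = 0.00035, adjusted 0.026), with r = 0.64 without birds 19 and 1. *CYP2AC1* and *CYP2D6* had r = 0.78 (permutation p = 6e-05, adjusted 0.0036) and rho = 0.74 (permutation p = 0.00044, adjusted 0.026), with r = 0.75 without birds 8 and 19. In the cecum these pairs had an r of -0.12 and -0.28, and whether the tissues differ was not tested. *CYP1A1* and *CYP1A2*, neighbours on the chromosome, had r = 0.68 in the jejunum (permutation p = 0.00096, adjusted 0.023) and rho = 0.65 (permutation p = 0.0033, adjusted 0.073), with r = 0.57 without birds 1 and 19. In the cecum the pair did not pass (r = 0.51, permutation p = 0.051, adjusted 0.26, rho = -0.12, permutation p = 0.62, adjusted 0.85), and r was -0.44 without birds 3 and 12.

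**Figure D3:**
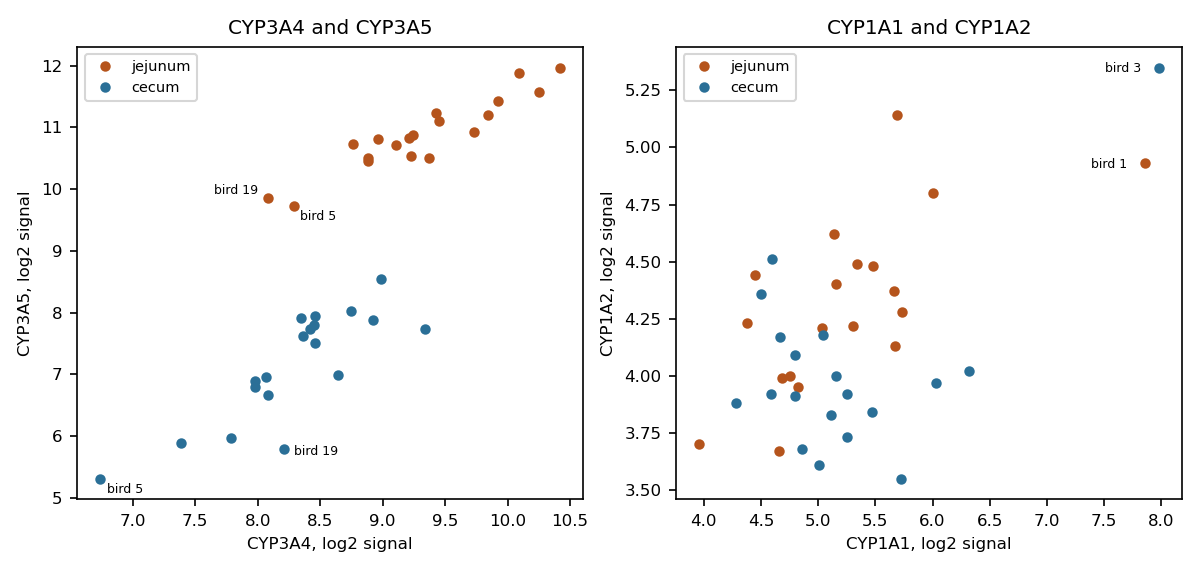
Log2 signal of *CYP3A5* against *CYP3A4* (left panel) and of *CYP1A2* against *CYP1A1* (right panel) in the jejunum and cecum of 19 birds, each point an array. In the left panel points of each tissue lie along a line (r = 0.93 for jejunal and 0.83 for cecal arrays), and in the right panel bird 1 (jejunum, 7.86) and bird 3 (cecum, 7.98) lie far to the right.

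Several P450 genes also moved with the enterocyte markers over birds. Other probe sets were not tested for this, so it cannot be called particular to P450 genes. The mean of the 12 enterocyte markers was lowest in the jejunal array of bird 19 (8.97, beside 9.37 to 10.62 in the others). Among the 40 members this array was the lowest of the jejunum for 10 and the highest for 4. The 10 include *CYP2C45*, *CYP4V2*, *CYP3A4* and *CYP1A1*, while *CYP3A5* was lowest in bird 5 and *CYP2AC1* in bird 8. The jejunal array of bird 19 also had the highest jejunal mean of the 6 B cell markers (8.02, median of the tissue 6.20) and of the 8 T cell markers (8.08, median 7.38). The jejunal array of bird 5 had the highest smooth muscle mean (8.43, median 7.04) and the lowest goblet cell mean (7.947, median 8.975). A test of 80 relations was chosen after the data were seen. In the jejunum 11 members had a positive r with the enterocyte mean (adjusted permutation p under 0.05) and 1 had a negative r. In the cecum 1 was positive and 1 negative. The positive one, *CYP3A4*, passed both measures, and r was 0.73 without birds 12 and 11. It had r = 0.63 (permutation p = 0.0044, adjusted 0.035) and rho = 0.705 (permutation p = 0.00098, adjusted 0.020). The negative one was *CYP24A1* (r = -0.61, permutation p = 0.0048, adjusted 0.035), which did not pass by rho (adjusted 0.090). Past both measures in the jejunum were *CYP3A5*, *CYP4V2*, *CYP2D6*, *CYP2AC1* and *CYP1A1*. For *CYP3A5* r was 0.81 (permutation p = 1e-05, adjusted 0.00080) and rho was 0.74 (permutation p = 0.00064, adjusted 0.017), with r = 0.71 without birds 19 and 5. *CYP4V2* had r = 0.87 (permutation p = 6e-05, adjusted 0.0024) and rho = 0.66 (permutation p = 0.0030, adjusted 0.041), and r was 0.53 without the same birds. For *CYP2C45* the relation rested in good part on those birds, with r = 0.75 (permutation p = 0.0012, adjusted 0.019) and rho = 0.49 (permutation p = 0.033, adjusted 0.15), and r = 0.35 without them. The part of enterocyte, B cell, T cell, smooth muscle or goblet cell content in these values was not tested.

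Genes that work with P450 enzymes were counted from lists written with earlier results of these data known. Counts cover measured genes only. Measured were 8 of 13 listed electron donors and partners, 11 of 16 heme genes and 19 of 29 receptors and factors. For other phase I enzymes, conjugating enzymes and efflux transporters the counts were 11 of 26, 19 of 34 and 8 of 11. For retinoid, vitamin D, eicosanoid and steroid lists they were 11 of 20, 6 of 9, 13 of 15 and 15 of 25. Of 8 measured electron donors and membrane partners 0 were called, since no difference reached 2-fold (-0.85 to 0.89). At any size 4 passed the adjusted threshold as higher in the jejunum (20.1% of all probe sets did) and 2 as lower (25.1%). *POR*, the reductase that feeds electrons to P450 enzymes of the endoplasmic reticulum, was named after its values were seen. It ranged from 7.25 to 8.89 in the jejunum (median 8.15), against 6.89 to 7.50 in the cecum (median 7.26), and was higher in the jejunum of 18 of 19 birds (0.89, SE 0.09, adjusted p = 1.4e-10). Of 11 genes of heme synthesis and breakdown 1 was called higher in the jejunum (*FLVCR2*, a transporter, 1.51) and 0 lower, beside 3.68% and 3.62% of all probe sets.

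Nuclear receptors and other factors that regulate P450 genes, up or down, were called higher in the jejunum for 3 of 19 (3.68% of all probe sets were), and 0 were called lower (3.62%). *NR1I3*, the receptor that in birds takes the role of the mammalian xenobiotic receptors for many drugs, ranged from 5.15 to 6.74 in the jejunum (median 6.23), against 4.02 to 4.82 in the cecum (median 4.43). No values overlapped (difference 1.77, SE 0.09, adjusted p = 9.2e-20). *HNF4G*, a factor of the gut epithelium, differed by 1.71 (adjusted p = 4.8e-14), and *PPARA*, which drives fatty acid oxidation and family 4 genes in rodents, by 1.34 (adjusted p = 7.4e-09).

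Other enzymes and transporters for foreign compounds were called in both directions (3.68% of all probe sets were called higher in the jejunum and 3.62% lower). Among 11 other phase I enzymes 3 were called higher in the jejunum, *EPHX1* (2.69), *XDH* (1.73) and *MAOA* (1.62), and 2 lower, *ADH1C* (-2.25) and *AOX1* (-1.58). *EPHX1* opens the epoxides that P450 enzymes make. Among 19 conjugating enzymes 1 was called higher in the jejunum, the glutathione transferase *GSTT1* (1.86), and 5 lower, with *GSTA4* (-3.40), *GSTT1L* (-1.74), *SULT1E1* (-1.53) and *SULT1C3* (-1.09) furthest from 0. Efflux transporters were called higher in the jejunum for 4 of 8, with *ABCC2* (3.85), *ABCB1* (3.26), *ABCC10* (1.53) and *ABCG2* (1.32), and lower for 2, with *ABCC3* (-2.69) and *ABCC1* (-1.45). *ABCC2*, *ABCB1* and *ABCG2* pump compounds into the gut lumen, and *ABCC3* pumps them to the blood side.

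Lists of retinoid, vitamin D, steroid and eicosanoid genes were counted in the same way. Over all probe sets 3.68% were called higher in the jejunum and 3.62% lower, and 20.1% and 25.1% passed at any size. Of 11 genes of retinoid metabolism 3 were called higher in the jejunum, *RBP2* (6.82), which binds retinol in enterocytes, *BCO1* (3.40), which cleaves carotene, and *LRAT* (2.27), and 0 lower, while at any size 4 passed as higher and 1 as lower. Of 6 genes of vitamin D action 2 were called higher, the calcium binder *CALB1* (3.52) and the phosphate carrier *SLC34A2* (3.37), and 0 lower, beside 4 and 0 at any size. For 15 further steroid and bile acid enzymes the counts were 3 higher, *AKR1D1* (3.17), *BAAT* (2.09) and *HSD3B7* (2.09), and 0 lower, beside 6 and 4 at any size. Genes of eicosanoid metabolism were called for 2 of 13, *HPGD* (1.12) higher in the jejunum and *HPGDS* (-1.06) lower, and at any size 4 passed as higher and 6 as lower. The median differences of the retinoid, vitamin D, steroid and eicosanoid lists were 0.04, 0.48, 0.13 and -0.07, beside -0.03 over all probe sets. *TBXAS1*, a P450 gene whose symbol does not begin with CYP and which was named after its values were seen, differed by -0.27 (adjusted p = 0.042).

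**Figure D4:**
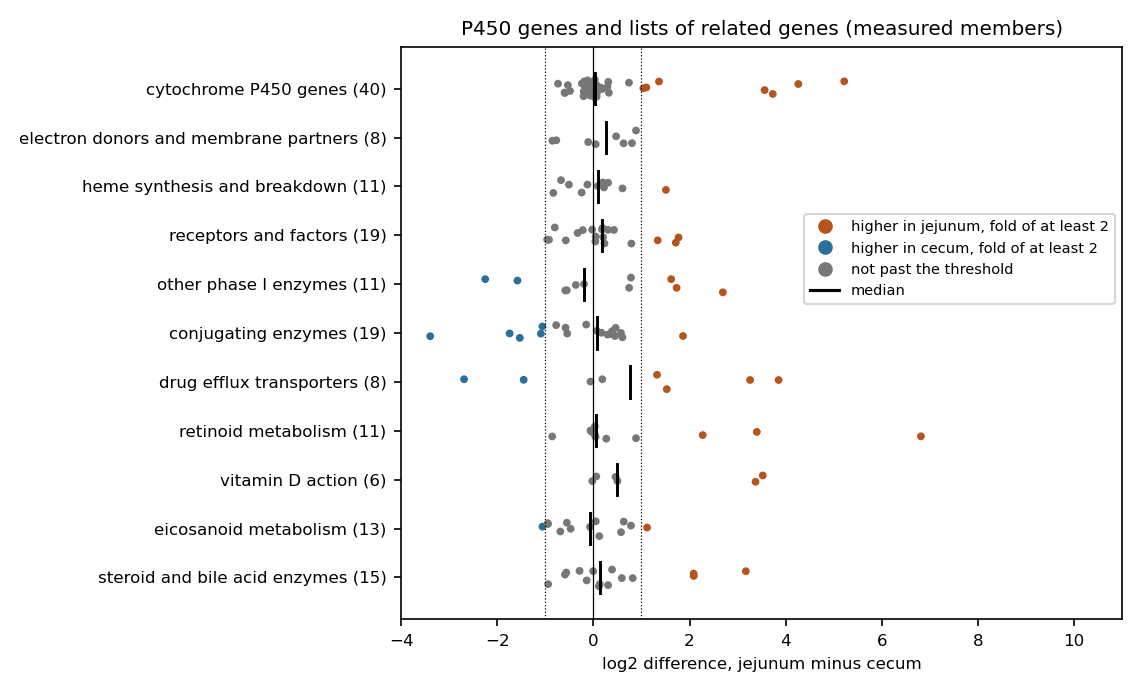
Log2 difference (jejunum minus cecum) of each measured gene of the 40 P450 genes and of 10 lists of related genes, with the number measured in brackets. Points are genes, coloured where they were called at a fold of at least 2, black bars are medians and dotted lines a 2-fold change. P450 genes called at this fold lie only on the jejunal side (7 and 0). So do those of the receptor (3 and 0), retinoid (3 and 0) and steroid and bile acid (3 and 0) lists. The vitamin D (2 and 0) and heme (1 and 0) lists show the same. Conjugating enzymes (1 and 5), efflux transporters (4 and 2), other phase I enzymes (3 and 2) and eicosanoid genes (1 and 1) lie on both.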

How the data were processed

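RNA of 19 jejunal and 19 cecal scrapings was hybridised to 1-colour Affymetrix Chicken Gene 1.0 ST arrays. The authors deposited log2 signals, rounded to 2 decimals, for 18308 probe sets, and their methods name the Transcriptome Analysis Console. How background was removed and signals were normalized and summarized is not given in the sources used here. Such steps can compress differences of dim probe sets. Array medians were 5.57 to 5.75, signals were 0.85 to 13.8, and nothing was normalized again. Arrays have no read depth, so their number limits the precision.

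Gene symbols came from the platform annotation, and gene IDs were looked up in the RefSeq table of GRCg7b. All probe sets were fitted with limma 3.58.1 in R 4.3.3 (lmFit, eBayes, tissue as the only term, Benjamini-Hochberg adjustment). Correlations over birds carry two-sided p from 100000 permutations, adjusted within each family of tests, and used scipy 1.17.1, pandas 2.3.3 and numpy 2.4.6 under Python 3.11.15, with matplotlib 3.10.9 for plots. The steps were tested on simulated data.

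Bird numbers pair the arrays because both tissues came from the same animal by the titles. Deviations from the tissue means correlated by 0.114 on average within a bird (-0.133 to 0.411, above 0 in 14 of 19) and by -0.006 between birds. The members, the lists and the tests were chosen with earlier results of these data known. Every member could be named, and of each list the called genes, up to 4 in each direction, while *POR* and *TBXAS1* were named outside this rule, after their values were seen. Alternatives were the bird as a block, quantile normalization, median centring, a filter on dim probe sets (mean under 5 in both tissues), trend with robust moderation, array weights, TREAT, gene means, and each bird left out. The setting without 4 arrays, and the other probe set of a gene, were added after seeing the data. The labels name no batch or scan date. *CYP51A1*, outside the rule, differed by 0.63 (adjusted p = 0.033). No sequences are given.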

Additional observations from a re-analysis of the deposited data

How the results depend on the processing

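The count of 7 members called higher in the jejunum and 0 lower was the same with the bird as a block (pairing), and the counts at any size of difference were then 10 higher and 7 lower in the jejunum, with *CYP2AB3* lost (adjusted p = 0.073). TREAT against a 2-fold change left 4 of the 7, *CYP2AC1*, *CYP2D6*, *CYP3A5* and *CYP4V2*. The 8 members lower in the jejunum at any size became 4 after centring arrays on their median and 3 when dim probe sets were left out, which removes 23 members from the test. The calls lost by centring were *CYP1B1*, *CYP21A1*, *CYP2AB3* and *CYP2AC7* (adjusted p 0.075 to 0.12), and *CYP21A1* and *CYP2AC7* were also lost by quantile normalization (0.057 and 0.054). *CYP1A2* passed as higher in the jejunum after quantile normalization, centring and array weighting, and without the 4 arrays (adjusted p 0.00080 to 0.025). Leaving out each bird in turn gave 6 to 7 members called higher and 0 called lower in the jejunum, and 10 to 12 higher and 7 to 9 lower at any size. None of the 18 differences that passed the adjusted threshold changed sign in these settings, while members near equality, such as *CYP1A1* (-0.16 without bird 1), did. Members with signals near the floor limit what small differences can show.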
